A study of Rattus norvegicus with 12 samples.

Results

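Mitochondrial ribosomal protein genes were taken as all probe sets whose single annotated symbol was Mrpl or Mrps followed by a number. They comprised 97 probe sets of 73 genes, out of 31042 probe sets that were not Affymetrix controls, of which 20826 carried 1 gene symbol. Large subunit names (Mrpl) covered 58 probe sets of 46 genes, and small subunit names (Mrps) covered 39 probe sets of 27 genes. After the dimmest 30% of all probe sets were left out (mean signal under 14.8), 93 member probe sets were tested, with at least 1 for each of the 73 genes. The 4 that were left out were Mrpl37 1386606_at with a mean signal of 5.09, Mrps18c 1382418_at with 4.62, Mrps22 1397725_at with 10.7 and Mrps26 1375166_at with 1.87.

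Testes of rat embryos at day 16 were profiled on 12 Affymetrix arrays, 2 in each of 6 groups. In the F1 Vinclozolin group the pregnant mothers had received vinclozolin, a fungicide with antiandrogenic metabolites, by intraperitoneal injection at 100 mg/kg/day on pregnancy days 8 to 14. In the F1 Control group the mothers had received the sesame oil and DMSO vehicle on the same days. The F2 and F3 Control and Vinclozolin groups were embryos of later generations of those lines, with no further dose described in the labels. All groups shared the embryonic stage and pools of about 10 testes per RNA, and no strain was named. For F2 and F3 Vinclozolin the protocols described the mated animals with the wording of the control lines, and the group names of the titles were followed here. Whether pools were drawn from separate litters was not given, so p-values measured only the spread between these RNA samples, which may be technical.

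The mitochondrial ribosome, or mitoribosome, translates the few messenger RNAs made from mitochondrial DNA, which encode core subunits of the respiratory chain and of ATP synthase. Its ribosomal RNAs come from mitochondrial DNA, but its proteins are encoded in the nucleus, made in the cytosol and imported. Some of them descend from bacterial ribosomal proteins and keep their numbers, while many with higher numbers were acquired by the mitochondrial particle. In the fetal testis, steroid synthesis by Leydig cells starts inside mitochondria.

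The Sertoli cell marker Amh had a signal of 2396.6 to 3417.8 over the 12 arrays, and the Leydig cell marker Cyp17a1 had 3888.7 to 4697.7, while of the 4 mesonephros and duct markers Pax2 had 2.7 to 15.3, Cdh16 1.1 to 10.0, Pax8 5.2 to 51.9 and Emx2 96.8 to 148.8. Germ cell markers had no probe set under the 4 symbols searched. Summed signals of 5 Leydig genes ran from 10970.7 to 11666.6 in the controls and from 12007.7 to 14312.1 in the vinclozolin lineage. Sums of 4 measured erythroid genes, of 7 listed, ran from 5411.3 to 6281.6 and from 6937.9 to 9278.8. The 3 measured Sertoli genes summed to 4001.5 to 4340.5 against 3506.3 to 4546.5, 5 muscle genes to 366.1 to 460.6 against 322.7 to 464.2, and the 4 duct genes to 150.4 to 202.2 against 133.5 to 175.9. In such bulk RNA, more cells of a type and more RNA per cell cannot be told apart. The ratio of the 5' to the 3' probe set of beta-actin, a measure of RNA integrity and labelling, was 0.423 to 0.471 in the controls. It was 0.192 and 0.149 in F1 Vinclozolin, 0.246 and 0.219 in F2 Vinclozolin, and 0.395 and 0.36 in F3 Vinclozolin. The same ratio of Gapdh was 0.959 to 1.02 in the controls, 0.718 and 0.651 in F1 Vinclozolin, and 0.8 and 0.721 in F2 Vinclozolin. In F3 Vinclozolin it was 1.02 and 0.97, within the range of the controls. The part that the erythroid and Leydig sums have in the results on mitoribosomal genes was not tested.

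In F1 testes, mitoribosomal protein transcripts were mostly higher in the vinclozolin lineage. Of the 93 probe sets, 39 (41.9%) were called higher, against a background of 9.41% of all 21729 tested probe sets, and 7 (7.53%) were called lower, against 13.7%. A call is a Benjamini-Hochberg adjusted p under 0.05 in limma, fitted to log2(signal + 16) of all probe sets and all 12 arrays. The median log2 fold change of the 93 was 0.28, against -0.01 over all tested probe sets, and 74 of the 93 were above 0. Both vinclozolin arrays lay above both controls for 61 probe sets (background 27.8%), and below both for 11 (background 30.6%). By gene, with the brightest probe set of each, 35 of 73 were called higher and 2 lower, against backgrounds of 11.2% and 8.98%. Most members were brighter than most tested probe sets, and backgrounds within bands of signal are given further below.

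These F1 counts moved with the arrays in the fit, as did the background. With the F1 arrays alone, 12 members were called higher (background 2.8%). The number called higher was 22 without F1 Control replicate 1 (background 4.21%), 15 without F1 Control replicate 2 (3.76%) and 22 without F1 Vinclozolin replicate 2 (6.38%). It was 57 without F1 Vinclozolin replicate 1 (background 14.3%). The number called lower was 3 without F1 Control replicate 1 (background 8.44%) and 4 without F1 Control replicate 2 (7.81%). With the beta-actin ratio as a covariate, 0 of the 93 were called in F1, in F2, in F3 or in the mean of the 3 generations, and 0 of all 21729 probe sets (0.0%) were called in F1, in F2 or in the mean. In that fit the median standard error of the 93 in F1 was 0.48, against 0.12, and the members' median log2 fold change was -0.28. In F3 the median standard error was 0.13, against 0.12, and the members' median was 0.03, against 0.15 without the covariate. The background medians also moved with the scaling. When each array was centred on its median, the median of all probe sets was 0.10 in F1 and 0.11 in F2, against -0.01 in each with the deposited scaling. The split of all called probe sets in F1 was then 3678 higher and 2199 lower, in place of 2045 and 2981. With that centring 55 members were called higher in F1 (background 16.9%) and 5 lower (10.1%). With array weights 27 were called higher (background 5.68%) and 6 lower (9.59%).

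**Figure D1:**
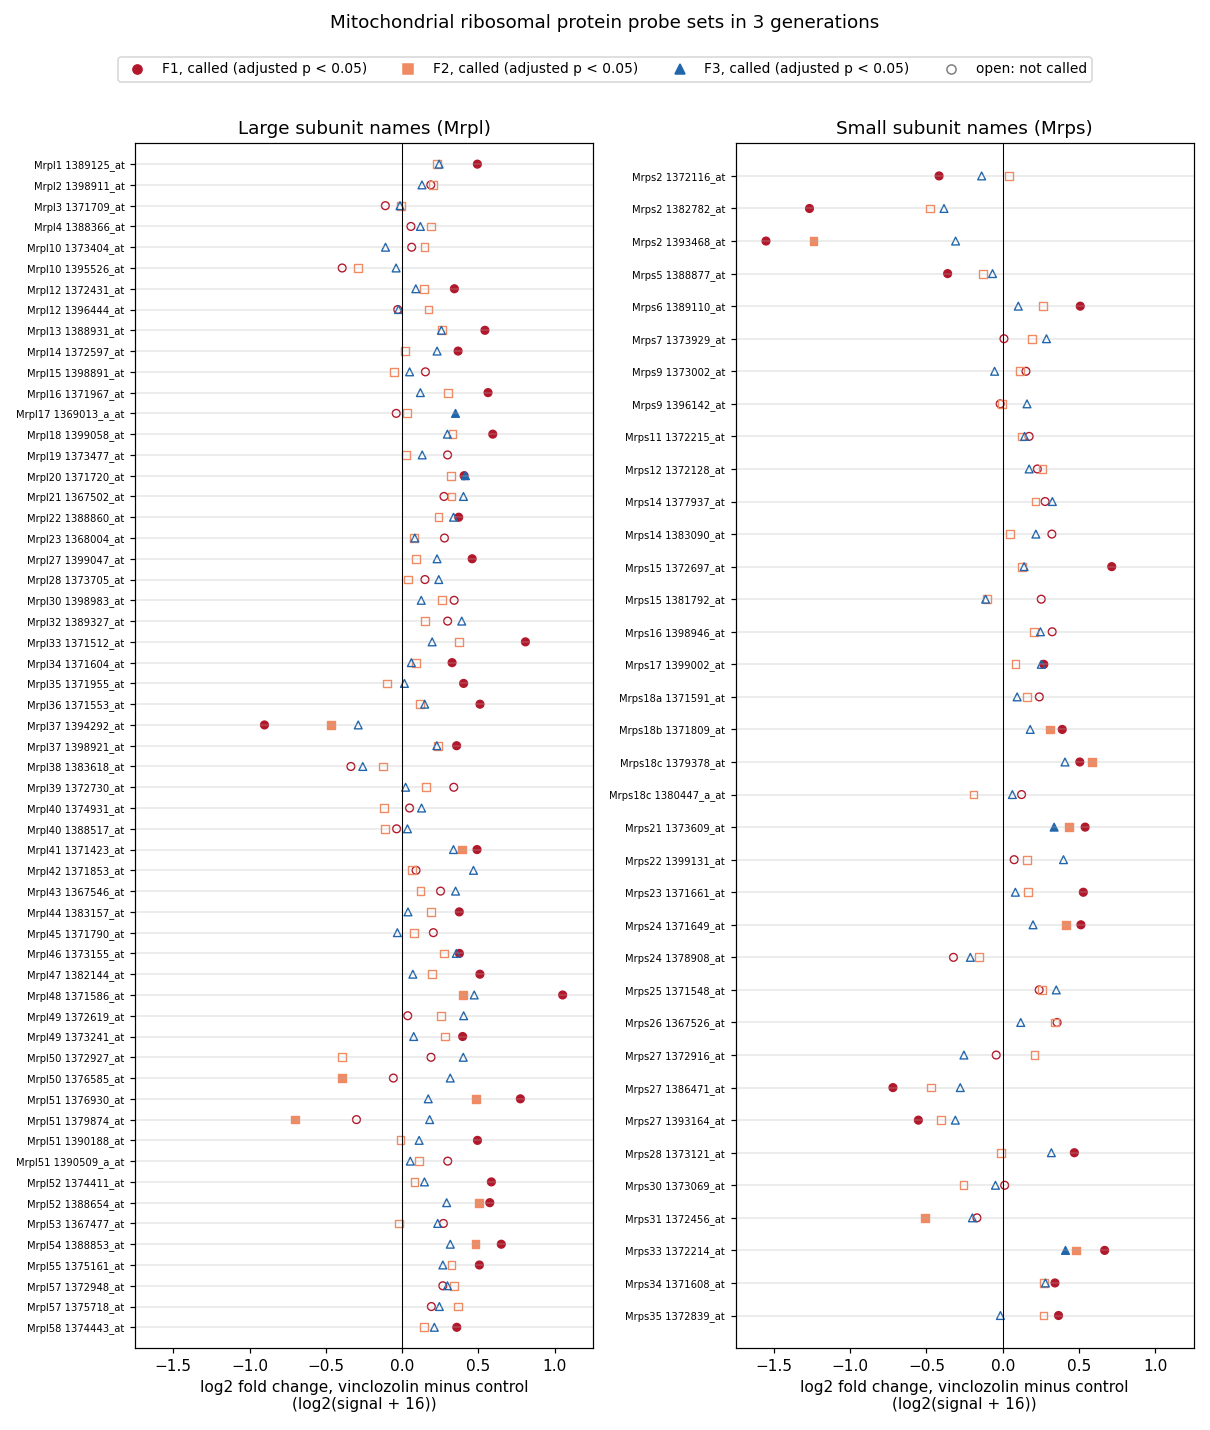
Log2 fold change, vinclozolin minus control, of each tested mitoribosomal probe set in F1, F2 and F3; filled symbols were called and open ones were not. The points lie mostly above 0, with medians of 0.28, 0.15 and 0.15, while a few dim probe sets reach down to -1.55 in F1.

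Mrpl48, a large subunit protein with no bacterial counterpart, had the highest F1 difference. Its signal was 499.7 and 440.0 in the F1 controls and 877.4 and 1115.2 in F1 Vinclozolin. Both vinclozolin arrays were far above both controls, and the log2 fold change was 1.05 ± 0.13 (SE; limma adjusted p = 4.58e-05), a 2.07-fold difference. Mrpl33, the homologue of a small bacterial large subunit protein, had 503.6 and 511.2 against 774.4 and 1046.2. The groups did not overlap, and its log2 fold change was 0.81 ± 0.13 (limma adjusted p = 0.000458). The F1 controls of Mrpl33 lay below every other array, since the F2 and F3 controls had 546.0, 655.7, 632.2 and 647.2.

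Mrpl51, another protein specific to mitochondria, gave 255.8 and 221.4 in the F1 controls and 430.4 and 407.1 in F1 Vinclozolin with probe set 1376930_at. The 4 arrays fell into separate ranges, and the log2 fold change was 0.77 ± 0.10 (limma adjusted p = 0.000102). The brightest Mrpl51 probe set, 1390509_a_at, had 368.1 and 326.3 against 402.2 and 459.6. Its F1 log2 fold change was 0.30 ± 0.12 (limma adjusted p = 0.084), and it was not called. Of the 4 tested Mrpl51 probe sets, 2 were called higher in F1 and 0 lower. Mrps33, a small subunit protein specific to mitochondria, had 639.4 and 650.8 against 941.5 and 1135.8. Its controls differed little from each other, and its log2 fold change was 0.67 ± 0.09 (limma adjusted p = 0.000175).

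As for Mrpl48 and Mrpl33, the second F1 Vinclozolin array stood well above the first for further members. Mrps15, the homologue of a bacterial protein that binds ribosomal RNA early in assembly, had 418.7 and 392.4 in the controls and 513.8 and 885.6 in the vinclozolin arrays (1372697_at). Its log2 fold change was 0.71 ± 0.17 (limma adjusted p = 0.00758). Mrpl54 had 734.7 and 740.3 against 1004.8 and 1352.8, a log2 fold change of 0.65 ± 0.13 (limma adjusted p = 0.00288). Mrpl18, which has also been linked to import of 5S ribosomal RNA into mitochondria, had 624.3 and 643.8 against 834.6 and 1115.1. Its arrays did not overlap either, and its log2 fold change was 0.59 ± 0.11 (limma adjusted p = 0.00146).

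Both probe sets of Mrpl52 were called higher in F1. The first, 1374411_at, had 239.2 and 246.3 in the controls and 297.7 and 463.9 in the vinclozolin arrays, and 1388654_at had 120.6 and 142.9 against 192.2 and 215.1. Their log2 fold changes were 0.58 ± 0.15 and 0.57 ± 0.13 (limma adjusted p = 0.0104 and 0.00422). Mrpl16, which lines the site where transfer RNAs enter the large subunit of bacterial ribosomes, had 416.8 and 434.7 against 585.4 and 691.6, a log2 fold change of 0.56 ± 0.10 (limma adjusted p = 0.0011). The other 29 probe sets called higher had log2 fold changes of 0.27 to 0.54, with limma adjusted p up to 0.0487. Among them were Mrpl36 at 0.51 ± 0.12, Mrps6 at 0.51 ± 0.14, Mrps24 1371649_at at 0.51 ± 0.12, Mrpl44, an RNase III-like protein, at 0.37 ± 0.12, Mrpl12 1372431_at, a protein reported to bind the mitochondrial RNA polymerase, at 0.34 ± 0.10, and Mrpl58, a peptidyl-tRNA hydrolase built into the large subunit, at 0.36 ± 0.11. The 47 probe sets that were not called ran from -0.39 to 0.36, and 35 of them were above 0.

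The 7 probe sets called lower in F1 came from 4 genes, and the strongest were dim. Mrps2, the homologue of a bacterial small subunit protein, was called lower with all 3 of its probe sets. Probe set 1393468_at had 56.1 and 63.5 in the F1 controls and 11.9 and 7.9 in F1 Vinclozolin. Its log2 fold change was -1.55 ± 0.23 (limma adjusted p = 0.000267), and the vinclozolin signals lay below the mean of 14.8 under which probe sets were left out.

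The other Mrps2 probe sets were brighter. Probe set 1382782_at had 91.3 and 100.4 against 43.6 and 20.2, a log2 fold change of -1.27 ± 0.20 (limma adjusted p = 0.000388). For 1372116_at, with 392.7 and 401.2 against 325.0 and 264.3, the log2 fold change was -0.42 ± 0.11 (limma adjusted p = 0.0102). All 3 thus had separate groups in F1, with a smaller log2 difference in the brighter probe sets.

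Mrps27, a pentatricopeptide repeat protein of the small subunit, was lower with 2 of its 3 probe sets. With 1386471_at the F1 controls had 111.3 and 86.3 and the vinclozolin arrays 52.4 and 54.2, a log2 fold change of -0.72 ± 0.15 (limma adjusted p = 0.00327). Probe set 1393164_at gave -0.55 ± 0.16 (limma adjusted p = 0.0191), while 1372916_at, the brightest, gave -0.04 ± 0.12 and was not called. Mrps5, another homologue of a bacterial protein, had 521.9 and 500.6 against 389.5 and 399.3, a log2 fold change of -0.36 ± 0.09 (limma adjusted p = 0.0106). The F1 controls of Mrps5 stood above every other array, since the F2 and F3 controls had 422.6, 387.1, 432.4 and 389.6.

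In F2 testes more members were again called higher than lower. Of the 93 probe sets, 10 (10.8%) were called higher, against a background of 4.7%, and 5 (5.38%) lower, against 9.65%. The median log2 fold change was 0.15, against -0.01 over all tested probe sets, and 68 of 93 were above 0. Vinclozolin arrays lay above both F2 controls for 48 probe sets (background 27.6%) and below both for 17 (background 30.4%). The count called higher was 2, 4, 5 and 1 without F2 Control replicate 1, F2 Control replicate 2, F2 Vinclozolin replicate 1 and F2 Vinclozolin replicate 2 (backgrounds 1.19%, 1.3%, 3.67% and 0.971%). It was 27 without F1 Vinclozolin replicate 1 or replicate 2 (9.15% and 9.12%), whose spread enters the shared error, and 16 with the F2 arrays alone (5.74%). The count called lower was 1, 2 and 1 without F2 Control replicate 1, F2 Control replicate 2 and F2 Vinclozolin replicate 2 (backgrounds 4.14%, 4.28% and 4.01%). It was 2 without F3 Control replicate 1 or replicate 2 (8.11% and 8.1%), and 9 without F1 Vinclozolin replicate 1 or replicate 2 (13.3% and 13.4%). With median centring, 28 were called higher and 2 lower (backgrounds 11.9% and 6.88%), and with array weights 20 and 5 (backgrounds 5.98% and 10.8%).

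Mrps18c, one of 3 paralogs of a bacterial small subunit protein, had the highest F2 log2 fold change among the called members, 0.59 ± 0.16 (limma adjusted p = 0.0231, 1379378_at). Its F2 signals were 72.7 and 77.0 in the controls and 121.0 and 119.7 in the vinclozolin arrays. The arrays of each group were close to each other and the groups were apart. The brighter Mrps18c probe set, 1380447_a_at, gave -0.19 ± 0.17 in F2 and was not called. Mrpl52 1388654_at came next among the called members at 0.51 ± 0.13 (limma adjusted p = 0.0151). Its F2 signals were 122.4 and 151.7 against 203.9 and 196.6. The brighter Mrpl52 probe set, 1374411_at, had 260.4 and 293.2 against 293.0 and 293.5 in F2. Its log2 fold change was 0.08 ± 0.15 (limma adjusted p = 0.765), and it was not called.

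Mrpl51 1376930_at had 235.3 and 227.5 in the F2 controls and 314.8 and 346.2 in F2 Vinclozolin, a log2 fold change of 0.48 ± 0.10 (limma adjusted p = 0.00561). Mrps33 had 682.6 and 687.7 against 978.3 and 948.5, a log2 fold change of 0.48 ± 0.09 (limma adjusted p = 0.00358). In both, the lowest vinclozolin array was well above the highest control. The brightest Mrpl51 probe set, 1390509_a_at, was not called in F2 either, at 0.11 ± 0.12 (limma adjusted p = 0.593). Mrps21, the homologue of a bacterial protein of the small subunit platform, had 641.9 and 680.9 against 869.7 and 929.1, a log2 fold change of 0.43 ± 0.09 (limma adjusted p = 0.00404). The remaining F2 members called higher were Mrpl54 at 0.48 ± 0.13, Mrps24 1371649_at at 0.42 ± 0.12, Mrpl48 at 0.40 ± 0.13, Mrpl41, a large subunit protein specific to mitochondria, at 0.39 ± 0.11, and Mrps18b at 0.31 ± 0.09.

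Of the F2 members called lower, Mrps2 1393468_at had 60.1 and 74.6 in the controls and 20.3 and 18.0 in the vinclozolin arrays, a log2 fold change of -1.24 ± 0.23 (limma adjusted p = 0.00262). The brightest Mrps2 probe set, 1372116_at, was not called in F2, with 364.1 and 353.7 against 377.1 and 362.3. Mrpl51 1379874_at had 100.9 and 98.3 against 64.5 and 46.7, a log2 fold change of -0.70 ± 0.15 (limma adjusted p = 0.00636). The others were Mrps31 at -0.51 ± 0.16, Mrpl37 1394292_at at -0.47 ± 0.14 and Mrpl50 1376585_at at -0.39 ± 0.11, with limma adjusted p of 0.0486, 0.0312 and 0.0306.

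In F3 testes 4 of the 93 probe sets (4.3%) were called higher, against a background of 1.05%, and 0 lower, against 2.06%. The median log2 fold change was 0.15, against -0.01 over all tested probe sets, and 73 of 93 were above 0. Vinclozolin arrays lay above both controls for 54 probe sets (background 25.8%) and below both for 12 (background 29.7%). The count called higher was 0 without F3 Control replicate 1, F3 Control replicate 2, F3 Vinclozolin replicate 1 or F3 Vinclozolin replicate 2 (backgrounds 0.0966%, 0.115%, 0.276% and 0.161%). It was 1 without any 1 of the F1 and F2 control arrays (backgrounds 0.511% to 0.561%), and 22 without F1 Vinclozolin replicate 1 or replicate 2 (4.32% and 4.31%). When array weights were fitted, 25 were called higher and 0 lower (backgrounds 5.17% and 7.31%), and with the F3 arrays alone, 23 were higher (background 4.55%). With median centring 7 were higher and 0 lower (backgrounds 1.47% and 1.49%). With the beta-actin covariate, where 0 members were called, the backgrounds were 0.391% higher and 0.746% lower. The members' median was then 0.03, with a median standard error of 0.13, against 0.12 without the covariate.

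The F3 members called higher were Mrpl20, Mrps33, Mrpl17 and Mrps21. Mrpl20, the homologue of a bacterial protein needed for large subunit assembly, had 527.1 and 536.8 in the F3 controls and 694.2 and 735.2 in F3 Vinclozolin, a log2 fold change of 0.41 ± 0.10 (limma adjusted p = 0.0432). Mrps33 had 720.0 and 666.6 against 894.7 and 959.4, a log2 fold change of 0.41 ± 0.09 (limma adjusted p = 0.03). Mrps21 had 665.8 and 628.7 against 831.1 and 811.4, a log2 fold change of 0.34 ± 0.09 (limma adjusted p = 0.0484). In each of them the vinclozolin arrays lay above the controls in all 3 generations, and Mrps33 and Mrps21 were called in all 3.

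Mrpl17, a homologue of a bacterial large subunit protein and the brightest member, differed from these in its pattern over generations. Its signal was 1295.8 and 1337.5 in the F1 controls and 1261.6 and 1300.8 in F1 Vinclozolin. In F2 it was 1272.9 and 1380.6 against 1372.9 and 1341.2, so that the lineages overlapped in both generations. In F3 it was 1288.2 and 1330.0 against 1662.0 and 1682.5, and the 2 F3 Vinclozolin arrays stood above the other 10. Its log2 fold change was -0.04 ± 0.08 in F1, 0.03 ± 0.08 in F2 and 0.35 ± 0.08 in F3 (limma adjusted p = 0.756, 0.817 and 0.0241). The test of the dependence on generation gave an adjusted p of 0.106 in limma, so the difference between generations was not called.

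**Figure D2:**
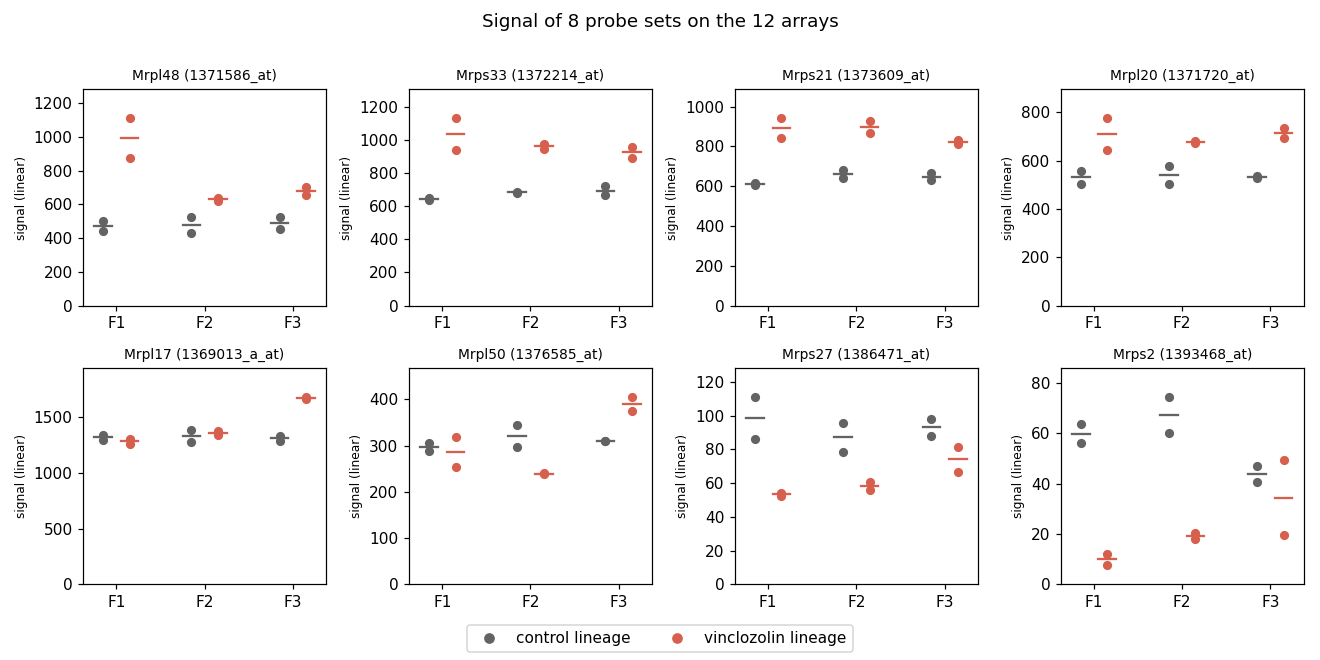
Linear signal of 8 member probe sets in each of the 12 arrays, with control and vinclozolin arrays side by side in each generation; dots are arrays and short lines are means of 2. Mrps33 and Mrps21 are above their controls in all 3 generations, while Mrpl17 is above them in F3 alone among its 3 pairs of groups.

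Averaged over the 3 generations, 51 of 93 probe sets (54.8%) were called higher, against a background of 14.1%, and 10 (10.8%) lower, against 19.2%. The median was 0.20, against -0.01 over all tested probe sets. The highest were Mrpl48 at 0.64 ± 0.07, Mrps33 at 0.52 ± 0.05, Mrps18c 1379378_at at 0.50 ± 0.09, Mrpl54 at 0.48 ± 0.08 and Mrpl51 1376930_at at 0.48 ± 0.06. They were followed by Mrpl33 at 0.46 ± 0.07, Mrpl52 1388654_at at 0.46 ± 0.07, Mrps21 at 0.44 ± 0.05, Mrpl18 at 0.41 ± 0.06 and Mrpl41 at 0.41 ± 0.06. The brightest probe sets of Mrps18c and Mrpl51, 1380447_a_at and 1390509_a_at, were at -0.002 and 0.15 in the mean, and neither was called. All 6 vinclozolin arrays lay above all 6 controls for 26 members (background 5.52%) and below them for 3 (background 7.73%). Those 3 were Mrps2 1382782_at at -0.71 ± 0.11, Mrpl37 1394292_at at -0.55 ± 0.08 and Mrps27 1393164_at at -0.42 ± 0.09. With median centring 68 were called higher and 5 lower (backgrounds 25.4% and 12.9%). The count called lower was 5 without F2 Control replicate 1 (background 16.0%). It was 6 without F1 Control replicate 2, F2 Vinclozolin replicate 2 or F3 Control replicate 1 (16.1%, 17.4% and 15.6%).

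The log2 fold change was above 0 in all 3 generations for 60 of 93 members (64.5%), against 23.3% of all tested probe sets, and below 0 in all 3 for 11 (11.8%), against 26.7%. The 10 probe sets called higher in F2 were 25.6% of the 39 called higher in F1 and 100.0% of those called in F2. Over all tested probe sets the calls shared by F1 and F2 were 28.7% of the F1 calls and 57.4% of the F2 calls. Between F1 and F3, 3 were shared, or 7.69% of the F1 calls and 75% of the F3 calls, against 5.87% and 52.6% over all probe sets. Across the 93 members, Pearson's r of the log2 fold changes was 0.803 between F1 and F2, 0.662 between F1 and F3, and 0.586 between F2 and F3. Over all 21729 probe sets it was 0.707, 0.4 and 0.469. These correlations run across probe sets, which share their 12 arrays and one global scaling and are not independent replicates.

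No member was called in the test of whether the lineage difference depended on generation (0 of 93 by limma, background 2.6%), and 18 of 93 (19.4%) had an unadjusted p under 0.05, against 17.1% of all probe sets. The number called was 29 without F1 Vinclozolin replicate 1 (background 16.1%) and 4 without F1 Vinclozolin replicate 2 (4.51%). It was 1 without F2 Vinclozolin replicate 1 or F3 Vinclozolin replicate 2 (3.79% and 1.16%). The smallest p-values belonged to Mrpl50, Mrpl51 and Mrpl48. For Mrpl50, a large subunit protein specific to mitochondria, 1376585_at had 297.1 and 344.0 against 238.7 and 240.3 in F2, and 310.1 and 310.7 against 405.9 and 374.9 in F3. The lineage difference thus had opposite signs in F2 and F3, at -0.39 ± 0.11 and 0.32 ± 0.11, and was -0.06 ± 0.11 in F1 (limma adjusted p = 0.0623). The other Mrpl50 probe set, 1372927_at, gave 0.19, -0.39 and 0.40 in F1, F2 and F3 (limma adjusted p = 0.0805).

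For Mrpl51 1376930_at the log2 fold changes were 0.77, 0.48 and 0.17 in F1, F2 and F3 (limma adjusted p = 0.0776). Mrpl51 1379874_at gave -0.30, -0.70 and 0.18 (limma adjusted p = 0.0811). Mrpl48 gave 1.05, 0.40 and 0.47 (limma adjusted p = 0.0926). Among the 3 control groups, 0 of 93 members differed by limma's F test (background 0.0%), and 1 (1.08%), against 2.38% of all probe sets, had an unadjusted p under 0.05. That member was Mrps5, followed in order of p by Mrps27 1372916_at, Mrpl49 1373241_at, Mrpl33 and Mrpl44, which did not pass it.

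The members were also followed array by array. Deviations were taken from the mean of the control arrays of the same generation. The median deviation of the 93 members was 0.17 and 0.40 in F1 Vinclozolin, 0.14 and 0.18 in F2 Vinclozolin, and 0.11 and 0.21 in F3 Vinclozolin. In the 6 control arrays it lay between -0.03 and 0.03, where the deviations of a pair mirror each other because its own mean is the reference. The second F1 Vinclozolin array was thus the highest, and it also had the lowest beta-actin ratio. Each vinclozolin array had between 66 and 77 of 93 members (71.0% to 82.8%) above its own control mean, against 46.6% to 51.1% of all tested probe sets. The medians over all tested probe sets lay between -0.04 and 0.01 in the vinclozolin arrays.

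**Figure D3:**
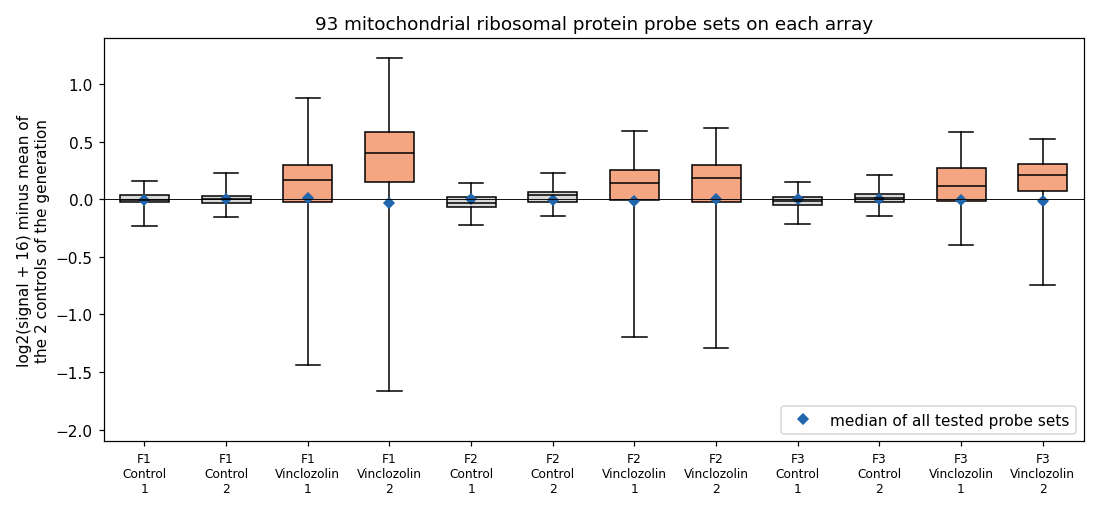
Deviation of the 93 tested mitoribosomal probe sets from the mean of their own generation's controls on the log2 scale, for each array: the line is the median, the box the quartiles, the whiskers the full range and the diamond the median of all tested probe sets. All 6 vinclozolin medians lie above the controls, from 0.11 to 0.40, and the second F1 Vinclozolin array is the highest.

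Genes with large and with small subunit names were described by the brightest probe set of each gene. In F1, 24 of 46 Mrpl genes were called higher and 0 lower, against backgrounds by gene of 11.2% and 8.98%, with a median log2 fold change of 0.34. Of the 27 Mrps genes, 11 were called higher and 2 lower, with a median of 0.27. The medians were 0.15 and 0.17 in F2, and 0.20 and 0.16 in F3. The medians of both groups of names thus lay on the same side of 0 in each generation, and the difference between them was not tested. The groups follow the names and not the place in the mitoribosome. Mrps18a, for example, which sits in the large subunit, was counted with the Mrps genes.

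Genes that share a number with a bacterial ribosomal protein were set beside genes with higher numbers, without a test. In F1, 18 of 40 genes of the first kind were called higher and 2 lower (backgrounds by gene 11.2% and 8.98%), with a median of 0.31. Of the 33 genes with higher numbers, 17 were called higher and 0 lower, with a median of 0.36. The median over all 11287 genes measured this way was 0.02.

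The 3 Mrps18 paralogs, of which Mrps18a sits in the large subunit in spite of its name, were measured separately. Mrps18a had 314.8 and 312.4 against 342.6 and 406.3 in F1 and was called in no generation, with log2 fold changes of 0.24 ± 0.13, 0.16 ± 0.13 and 0.09 ± 0.13. Mrps18b had 347.6 and 351.8 against 459.2 and 467.1 in F1, and was called higher in F1 at 0.39 ± 0.09 and in F2 at 0.31 ± 0.09, with 0.18 ± 0.09 in F3. Mrps18c 1379378_at was called higher in F1 at 0.50 ± 0.16 and in F2 at 0.59 ± 0.16, with 0.41 ± 0.16 in F3 (limma adjusted p = 0.181). The other tested Mrps18c probe set, 1380447_a_at, is the brighter one, gave 0.12, -0.19 and 0.06 and was called in none. No test between the paralogs was made.

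Probe sets of the same gene did not always move together. Of the 73 genes, 55 had 1 probe set, and 16 had 2 or more that were tested. In F1, 1 of the 16 was called in opposite directions, 1 was called higher and 1 lower with every tested probe set, 7 had called and uncalled probe sets, and 6 had none called. Mrpl37, a large subunit protein specific to mitochondria, was the gene with opposite calls. Its probe set 1398921_at had 746.3 and 738.4 in the F1 controls and 949.4 and 960.8 in F1 Vinclozolin, a log2 fold change of 0.36 ± 0.08 (limma adjusted p = 0.00433). Its probe set 1394292_at had 210.3 and 207.4 against 118.5 and 91.6, a log2 fold change of -0.90 ± 0.14 (limma adjusted p = 0.000279).

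The Mrpl37 pattern recurred in the other generations with smaller values. In F2, 1398921_at had 760.8 and 809.8 against 898.8 and 953.3, and 1394292_at had 194.8 and 203.7 against 147.9 and 131.9. In F3 they had 761.6 and 768.9 against 905.5 and 891.7, and 195.9 and 189.7 against 176.1 and 136.2. The vinclozolin arrays lay above the controls with the first probe set and below them with the second in each generation.

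Mrpl51 was the gene with opposite calls in F2, where 7 of the 16 genes, Mrpl51 included, had called and uncalled probe sets and 9 had none called. In F3 none of the 16 had a called probe set. Over all 16 genes the brightest probe set had a higher F1 log2 fold change than the dimmest in 11, with medians of 0.28 and 0.10. Which transcript regions these probe sets cover was not analysed here.

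**Figure D4:**
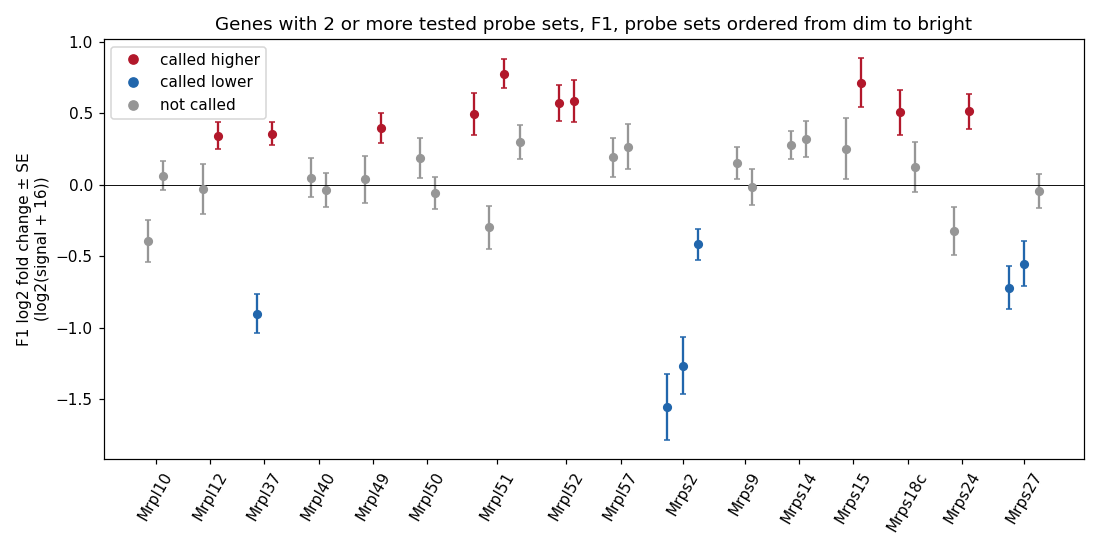
F1 log2 fold change of every tested probe set of the 16 genes with 2 or more, ordered from dim to bright within a gene; bars are SE, and red and blue mark calls of higher and lower. The Mrpl37 points lie at 0.36 and -0.90, the 3 Mrps2 points are all below 0, and both Mrpl52 points lie near 0.58.

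Brighter members were also called higher more often, in bands of mean signal chosen after the values were seen. In F1, 5 of 21 members under a signal of 200 were called higher and 5 lower, with a median of -0.03. Of 42 members between 200 and 500, 17 were called higher and 2 lower, and of 30 at 500 or more, 17 were higher and 0 lower. The shares called higher were 23.8%, 40.5% and 56.7%, against 5.16%, 15.2% and 27.6% of all tested probe sets in the same bands. The shares called lower were 23.8%, 4.76% and 0.0%, against 13.6%, 14.8% and 12.2%. The F1 medians were -0.03, 0.30 and 0.35 in the members, against -0.05, 0.02 and 0.11 over all tested probe sets. Of all 21729 tested probe sets, 15316 lay under 200, so the background over all of them is that of a dimmer set. The dimmest tested members were Mrps15 1381792_at, with signals of 12.5 to 35.3, Mrps24 1378908_at and Mrps2 1393468_at, and the brightest were Mrpl17, Mrpl54 and Mrpl37 1398921_at.

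Promoter sequences of members are shown because the members moved mostly in one direction. NRF1, ETS factors of the GABP type and YY1 are known to act at promoters of nuclear genes for mitochondrial proteins. The following are 190 bases before to 10 bases after the annotated start, on the gene's strand, from RefSeq on GRCr8, with matches to GCGCATGCGC (NRF1), CCGGAAG (ETS) or AAGATGGC (YY1) on either strand in capitals. They were chosen after their values were seen, for their motifs and their place in the results.
Mrpl48, chr1:164351367-164351566, minus strand: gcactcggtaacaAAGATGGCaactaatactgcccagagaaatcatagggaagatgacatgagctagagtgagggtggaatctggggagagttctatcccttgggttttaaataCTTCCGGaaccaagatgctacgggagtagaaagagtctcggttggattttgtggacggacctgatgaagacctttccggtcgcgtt
Mrpl52, chr15:31852746-31852945, plus strand: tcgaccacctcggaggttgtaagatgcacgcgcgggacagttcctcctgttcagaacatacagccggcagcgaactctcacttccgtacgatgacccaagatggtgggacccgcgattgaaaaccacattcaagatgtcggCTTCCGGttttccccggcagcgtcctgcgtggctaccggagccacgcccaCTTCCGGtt
Mrpl36, chr1:31795112-31795311, minus strand: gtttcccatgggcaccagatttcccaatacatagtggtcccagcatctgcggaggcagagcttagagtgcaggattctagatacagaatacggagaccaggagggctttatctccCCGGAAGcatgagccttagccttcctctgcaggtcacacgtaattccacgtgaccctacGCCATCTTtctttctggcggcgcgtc
Mrps18b, chr20:2842816-2843015, plus strand: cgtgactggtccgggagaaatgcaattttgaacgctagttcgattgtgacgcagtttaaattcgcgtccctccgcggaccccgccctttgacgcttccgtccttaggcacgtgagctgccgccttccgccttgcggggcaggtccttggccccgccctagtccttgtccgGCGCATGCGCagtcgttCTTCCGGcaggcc
Mrpl17, chr1:169575690-169575889, minus strand: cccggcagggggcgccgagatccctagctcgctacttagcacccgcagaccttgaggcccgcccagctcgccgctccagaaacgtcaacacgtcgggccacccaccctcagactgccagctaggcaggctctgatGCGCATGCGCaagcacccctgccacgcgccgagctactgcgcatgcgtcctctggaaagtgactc
Mrps33, chr4:69566929-69567128, minus strand: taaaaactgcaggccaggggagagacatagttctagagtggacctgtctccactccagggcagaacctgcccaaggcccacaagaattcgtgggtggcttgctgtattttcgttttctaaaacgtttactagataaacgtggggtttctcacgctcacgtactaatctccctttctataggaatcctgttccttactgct
Mrps2, chr3:32200887-32201086, plus strand: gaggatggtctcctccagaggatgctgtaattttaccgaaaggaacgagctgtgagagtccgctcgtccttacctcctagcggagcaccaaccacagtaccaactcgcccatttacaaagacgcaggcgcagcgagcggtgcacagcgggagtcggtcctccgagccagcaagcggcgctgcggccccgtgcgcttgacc

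The longer RefSeq windows, 250 bases before to 50 after the start, were matched by symbol for 59 of the 73 genes and for 19005 protein-coding genes in all. The ETS letters occurred in 20 of 59 members (33.9%), against 11.6% of all genes, the YY1 letters in 14 (23.7%), against 4.08%, and the NRF1 letters in 4 (6.78%), against 1.16%. At least 1 of these was found in 31 members (52.5%), against 15.7%. The CCAAT letters were in 27 (45.8%), against 39.8%, and TATAAA in 8 (13.6%), against 14.0%. The median GC content was 56.0% against 55.3%, and the median number of CpG was 18 against 12. ETS and NRF1 letters hold CpG, so these shares are not independent of that number. The 19005 genes were not limited to genes tested on the arrays, so the comparison was not matched for expression in testis.

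Members with and without a motif were set side by side in F1, without a test. Of the 20 genes with the ETS letters, 9 were called higher and 0 lower (backgrounds by gene 11.2% and 8.98%), with a median log2 fold change of 0.35. Of the 39 without them, 19 were called higher and 2 lower, with a median of 0.32. For YY1 the medians were 0.33 with and 0.33 without, and for NRF1 0.34 and 0.33. Among the members shown, Mrps33 and Mrps2 held none of the 3 sets of letters in the printed stretch, and Mrps33 was called higher and Mrps2 lower in F1. Mrpl48 held ETS letters 76 bases and YY1 letters 177 bases before the start, and Mrpl17, called in F3, held NRF1 letters 55 bases before it. A match is a description of letters and does not show binding.

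Several members start head to head with a neighbour on the other strand. A gene with its start within 1000 bases on the opposite strand was found for 17 of 59 members (28.8%), against 7.22% of all genes. Those were again all 19005 protein-coding genes, tested on the arrays or not. In 12 of these pairs the neighbour was tested and was no member itself. Of the 12 members, 4 were called higher and 0 lower in F1, and of their neighbours 1 was called higher and 1 lower, against backgrounds by gene of 11.2% and 8.98%. The median log2 fold changes were 0.30 for these members and 0.14 for the neighbours. Mrpl46 and Mrps11, both members, start 234 bases apart and had F1 log2 fold changes of 0.38 ± 0.11 (called) and 0.17 ± 0.11 (not called). Mrpl47 was at 0.51 ± 0.16 and its neighbour Ndufb5, a complex I subunit, at 0.82 ± 0.12, and both were called. Mrps18b was called higher at 0.39 ± 0.09, and its neighbour Ppp1r10, a regulatory subunit of protein phosphatase 1, lower at -0.54 ± 0.11.

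Other genes of mitochondrial translation were read with the brightest probe set of each, for which the backgrounds were 11.2% called higher and 8.98% lower in F1. Of 6 mitoribosome components under other names, 2 were called higher in F1, Chchd1 at 0.70 ± 0.14 and Aurkaip1 at 0.48 ± 0.12, and none lower. Of 11 translation factors, 3 were higher and 1 lower in F1. The initiation factor Mtif2 was higher at 0.60 ± 0.13, the release factor Mtrf1l at 0.45 ± 0.13 and the elongation factor Tufm at 0.24 ± 0.08. Tsfm, the exchange factor that recharges Tufm, was lower in F1 at -0.58 ± 0.11 and in F2 at -0.38 ± 0.11.

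The 16 mitochondrial aminoacyl-tRNA synthetases and related enzymes, which charge transfer RNAs, had an F1 median of -0.03. In F1, Nars2 at 0.69 ± 0.15, Ears2 at 0.53 ± 0.14 and Fars2 at 0.47 ± 0.12 were called higher and Iars2 at -0.49 ± 0.15 lower. The shares, 18.8% higher and 6.25% lower, stand beside backgrounds of 11.2% and 8.98%. In F2, 2 were higher and 3 lower (12.5% and 18.8%, backgrounds 6.02% and 5.09%). Of 24 genes of mitoribosome assembly and ribosomal RNA modification, 2 were called higher in F1, Ngrn at 0.53 ± 0.12 and Trub2 at 0.39 ± 0.11, and 2 lower, Nsun4 at -0.45 ± 0.16 and Gtpbp10 at -0.40 ± 0.11. These shares, 8.33% in each direction, were near the background.

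Of 18 genes of mitochondrial transcription and RNA processing, 4 were called higher in F1 and 0 lower (22.2% and 0.0%, backgrounds 11.2% and 8.98%). They were Lrpprc at 0.78 ± 0.11 and its partner Slirp at 0.61 ± 0.14, which stabilise mitochondrial messenger RNAs, and Hsd17b10 at 0.60 ± 0.11 and Prorp at 0.26 ± 0.09, subunits of mitochondrial RNase P. Of 9 nuclear regulators of mitochondrial genes, 0 were called in F1 or F3. In F2, Gabpa, the DNA-binding subunit of GABP, was called lower at -0.47 ± 0.14 (limma adjusted p = 0.037), with a background of 5.09% called lower.

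Larger sets gave the following values beside the mitoribosomal genes, with F1 backgrounds by gene of 11.2% higher and 8.98% lower. Of 78 nuclear-encoded subunits of oxidative phosphorylation, 45 were called higher and 1 lower in F1, 19 and 0 in F2, and 7 and 0 in F3, with medians of 0.33, 0.20 and 0.20. Of 42 cytosolic ribosomal protein genes, 31, 7 and 11 were called higher in F1, F2 and F3 and 0 lower, with medians of 0.31, 0.16 and 0.28. The mitoribosomal medians by gene were 0.33, 0.16 and 0.17, with 7 called higher and 2 lower in F2 (backgrounds 6.02% and 5.09%) and 4 and 0 in F3 (backgrounds 1.21% and 1.51%). No test between these sets was made.

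**Figure D5:**
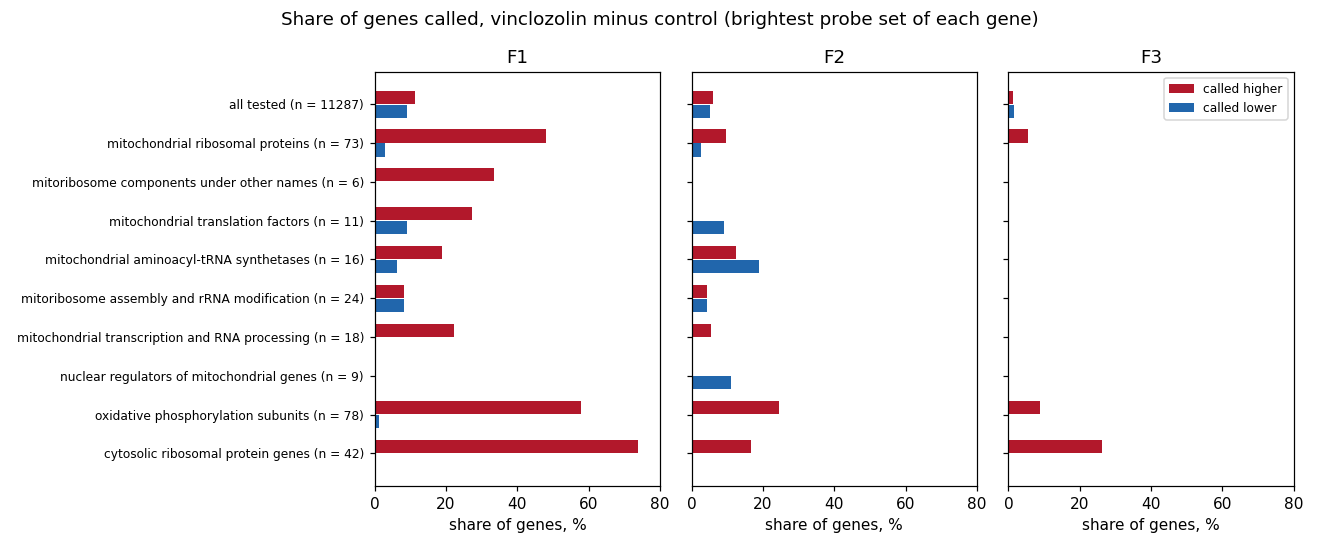
Percent of genes called higher (upper bar) and lower (lower bar) in F1, F2 and F3 for the mitoribosomal genes, each other gene list and all tested genes, 1 probe set per gene. In F1 the mitoribosomal (35 of 73), oxidative phosphorylation (45 of 78) and cytosolic ribosomal protein genes (31 of 42) have the longest bars for higher calls.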

How the data were processed

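Total RNA of 12 pools was hybridised to Affymetrix arrays, and the values deposited by the authors are linear signal intensity per probe set, with an equal trimmed mean on every array. Software for summarisation was not given in the sources used here. Detection calls played no role. Symbols came from GEO's platform annotation, in which 20826 probe sets had 1 symbol, 436 several and 9780 none. Members matched RefSeq by gene ID and symbol. Values were taken as log2(signal + 16), which understates the fold changes of dim probe sets. The 57 control probe sets and 9313 dim probe sets were left out, and 21729 were tested in a model of 6 group means with limma 3.58.1 in R 4.3.3 (lmFit, eBayes with trend, 6 residual and 8.97 prior degrees of freedom). Adjusted p is Benjamini-Hochberg over all tested probe sets, errors of log2 fold changes are SE, and n is 2 arrays per group. With 2 arrays a group, their number limits the precision.

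Named members were up to 10 highest and 10 lowest called members without overlap per comparison, the brightest and dimmest, the smallest p of each F test, genes with opposite calls and the Mrps18 paralogs. For each other gene list they were up to 4 called genes. Members and lists were chosen with earlier results of these data known. Alternatives covered the pseudocount, scaling, filter, array weights, arrays of 1 generation alone, 1 probe set per gene, the beta-actin ratio as a covariate, the replicate block and leaving out each array. The model was tested on simulated data. Over 15 pairs of groups, same-numbered arrays had correlations of deviations from -0.0932 to 0.0678, so the numbers were not used as pairs. Motifs were counted in RefSeq promoter windows of GRCr8 with Python 3.11.15. Protein sequences and probe positions were not used here.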

Additional observations from a re-analysis of the deposited data

How the results depend on the processing

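The beta-actin ratio as a covariate changed most values. With it 0 of 93 members were called higher or lower in F1, F2, F3 or the mean. Of all 21729 probe sets 0 were called in F1, F2 and the mean (0.0%), and 247 in F3. The members' median log2 fold change reversed to -0.28 in F1, -0.23 in F2 and -0.14 in the mean, and was 0.03 in F3. In F1 the reversed values were Mrpl33 -0.17, Mrps15 1372697_at -1.45, Mrpl54 -1.09, Mrpl18 -0.59, Mrpl52 1374411_at -0.88, Mrpl16 -0.21, Mrpl37 1394292_at 0.49, and Mrps2 0.12 (1393468_at), 1.00 (1382782_at) and 0.23 (1372116_at). In F2 they were Mrps18c -0.013, Mrpl54 -0.66, Mrps24 -0.39, Mrpl48 -0.11, Mrpl41 -0.063 and Mrpl37 1394292_at 0.44. In the mean they were Mrps18c -0.062, Mrpl54 -0.58, Mrpl33 -0.14, Mrpl18 -0.32, Mrpl41 -0.020, Mrps2 1382782_at 0.68 and Mrpl37 1394292_at 0.30. That ratio is nearly nested in lineage, and the cause was not tested. Under each of the other alternatives, no named member called in the main setting and no median changed sign. These called members had been chosen without overlap of the lineages. Their sign therefore could not change with the pseudocount, filter, array weights, replicate block, 1 generation alone or an array left out. Counts of calls, which could change, are given below.

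The members called higher in F3 were 2 with a pseudocount of 1, 7 with median centring, 1 with cyclic loess, 1 with no filter, 7 with the lowest 50% left out, 25 with array weights and 23 with the F3 arrays alone. Those higher in F2 were 28 with median centring, 20 with array weights, 6 with 1 probe set per gene and 16 with the F2 arrays alone. Those lower in F2 were 2 with median centring and 1 with 1 probe set per gene. In F1, 12 were higher with the F1 arrays alone, and 2 lower with 1 probe set per gene. In the mean, 5 were lower with median centring and 3 with 1 probe set per gene. In the test of dependence on generation, 1 was called with quantile normalization and 3 with array weights. Median centring gave member medians of 0.39 in F1, 0.26 in F2 and 0.30 in the mean.

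Leaving out 1 array at a time gave 15 to 57 higher and 3 to 9 lower in F1, 1 to 27 and 1 to 9 in F2, 0 to 22 and 0 to 0 in F3, and 39 to 62 and 5 to 11 in the mean. It gave 0 to 29 by generation and 0 to 0 among controls. The medians ran from 0.17 to 0.40 in F1, 0.12 to 0.18 in F2, 0.11 to 0.21 in F3 and 0.17 to 0.24 in the mean. Where 1 array of a group remained, it was assumed to vary like the other groups. The replicate block gave 43 higher and 8 lower in F1, 14 and 5 in F2, 5 and 0 in F3, and 53 and 10 in the mean, and the replicate numbers did not pair the arrays.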
